A study of Homo sapiens with 6 samples.

Results

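The genes described here are 10 members of the interleukin 6 (IL6) family and the pathway through which its ligands signal. They were chosen by symbol, and each was 1 of the 24000 entries of a table of transcript levels from PC-3 tumors. The ligands were IL6, LIF, IL11 and CLCF1, the receptor chains were IL6R, IL6ST, LIFR and OSMR, and the signaling genes were the transcription factor STAT3 and its feedback inhibitor SOCS3. In 9 of the 10 the mean level over all 6 tumors was at least 0.5 FPKM (fragments mapped to a transcript per length of the transcript and per depth of the library), and these 9 were among the 13287 entries tested. STAT3 did not reach that level.

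PC-3 is an established human prostate cancer cell line that grows without androgen. Per the labels, tumors of this 1 line were raised in nude mice, which lack T cells but keep their other immune cells and stroma. The control group was 3 tumors of vehicle-treated mice, and the treated group was 3 tumors of mice given a standardized extract of the herb Wedelia chinensis (WCE). Treatment lasted 10 weeks per the labels, which state neither the dose nor the age of the mice. The study's own text gives a shorter treatment for such tumors and more than a single dose, so the length and dose that apply to these tumors are not settled. Per the study's methods, the cells were injected into the prostate and the extract was given by mouth. Messenger RNA of each whole frozen tumor was sequenced, so fewer cells of a type and less RNA per cell cannot be told apart. The comparison addressed whether the extract changed transcript levels in the tumors, and IL6 was among the inflammatory cytokines that the study followed.

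Ligands of this family bind a private receptor chain, such as IL6R for IL6 or IL11RA for IL11, or a chain that several of them use, such as LIFR for LIF, and all of those described here then use the common chain IL6ST (gp130). The receptor complex activates the kinases JAK1, JAK2 and TYK2, which phosphorylate STAT3. STAT3 dimers then enter the nucleus and switch on target genes, of which SOCS3 blocks the receptor complex in return. In prostate cancer, IL6 is known as an inflammatory cytokine made by the tumor cells themselves, and NFκB is a well-known activator of its transcription. PC-3 is known as a cell line that lacks STAT3 protein.

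The IL6 promoter is shown because IL6 was the member whose WCE-treated tumors all lay below the vehicle-treated ones and because NFκB is known to act on it. The RefSeq window of build GRCh38.p14 holds 250 bases before the start of the gene and 50 after it. It lies on the plus strand at chr7:22726950-22727249, and the capitals mark the match to the NFκB motif GGG, any 2 bases, TTTCC.
IL6: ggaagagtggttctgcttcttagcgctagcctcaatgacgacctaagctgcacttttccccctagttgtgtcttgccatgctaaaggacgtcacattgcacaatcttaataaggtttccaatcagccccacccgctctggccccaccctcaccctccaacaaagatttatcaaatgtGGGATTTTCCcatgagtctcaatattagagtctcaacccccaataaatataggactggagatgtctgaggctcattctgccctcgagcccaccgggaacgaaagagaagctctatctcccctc
The match begins 73 bases before the start. On both strands, this motif was in 1.91% of 35116 such windows, and among the 8 members with a window in the table, which have 11 windows in all, only IL6 held it. A looser form (GGG, any 5 bases, CC), which covers the strict one, was in 58.7% of all windows and in 7 of the 8 members.

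The SOCS3 promoter is shown because SOCS3 is the textbook target of STAT3 in this set and its level was among the highest of the members. SOCS3 has 2 windows in the table. The one shown lies on the minus strand at chr17:78360876-78361175, and it has no capitals because the STAT motif TTCNNNGAA was in neither of them.
SOCS3: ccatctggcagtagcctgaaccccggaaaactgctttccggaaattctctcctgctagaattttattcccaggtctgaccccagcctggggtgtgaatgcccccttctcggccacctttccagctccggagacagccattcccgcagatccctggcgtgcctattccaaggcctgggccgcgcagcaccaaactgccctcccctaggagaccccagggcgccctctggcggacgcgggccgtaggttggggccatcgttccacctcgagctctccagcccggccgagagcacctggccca
The STAT motif was in 7.66% of all windows on either strand, and among the 8 members only LIFR held it. A match in these letters is a description of the sequence and not a measured binding site. Whether either SOCS3 window lies at the start of the transcript measured here was not determined. The lack of a match in them therefore does not show that SOCS3 has no STAT site.

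Before the levels are given, 1 feature of the libraries has to be stated. Vehicle replicate 3 and WCE replicate 1 were nearly the same library: over 1915 entries their median absolute log2 difference was 0.0278, against 0.0961 to 0.249 in the other 14 pairs of tumors. No entry was above 0 in WCE replicate 1 and at 0 in vehicle replicate 3, whereas 1419 entries were the other way round. The steps between low values put the depth of WCE replicate 1 at 25.0% of that of vehicle replicate 3, and the other 4 tumors between 64.8% and 85.2%. Many of the members and pathway genes are therefore also given for the 2 tumors per group that remain. All 5 markers of PC-3 cells were expressed, the epithelial KRT8, KRT18, KRT19 and EPCAM and the mesenchymal VIM. Their summed level was 1420 to 1796 FPKM in vehicle-treated and 1604 to 1727 FPKM in WCE-treated tumors, but they did not move together. KRT8, KRT18 and KRT19 had log2 fold changes of 0.05, 0.10 and −0.01. EPCAM was below the vehicle-treated tumors in each WCE-treated tumor (mean 246.7 against 146.8 FPKM, log2 fold change −0.73, unadjusted p = 0.00889 and adjusted p = 0.623 by limma, −1.08 without the near-identical pair). VIM had a log2 fold change of 0.41 (unadjusted p = 0.0673 by limma). The androgen target KLK3 was at 0 in every tumor. Of 10 myeloid markers only CD68, S100A8 and S100A9 reached a mean of 0.5 FPKM. The summed myeloid markers lay between 366.9 and 1596 FPKM in vehicle-treated and between 582 and 1594 FPKM in WCE-treated tumors. S100A9 was the largest part of this sum in each tumor. Fibroblast markers, 3 of 6 expressed, summed to 42.1 to 56.4 FPKM in vehicle-treated and 12.8 to 55.9 FPKM in WCE-treated tumors. COL1A1 was the largest part of this sum in each tumor, and its groups overlapped. LUM, at a lower level, had a log2 fold change of −0.85 (unadjusted p = 0.0308 and adjusted p = 0.623 by limma). Only the near-identical pair overlapped for LUM. Endothelial markers, 2 of 5 expressed, summed to 1.20 to 3.37 and 3.21 to 7.60 FPKM, and none of 3 T cell markers was expressed. The expressed endothelial markers did not move together. KDR had a log2 fold change of 1.14 (unadjusted p = 0.0345 and adjusted p = 0.623 by limma), and its groups did not overlap. PECAM1 had a log2 fold change of 0.14, and its groups overlapped. All markers were entries under human gene symbols, whereas the host cells are of the mouse. The sums are therefore no measure of host cells. The part of such cells in the results was not tested.

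In these tumors LIF was higher and IL6 was lower after WCE, while the levels of the receptor chains IL6ST and OSMR were close to equal in both groups. LIF had a ratio of the group means of 1.81 and IL6 one of 0.665, and for both genes the groups did not overlap. No member passed the adjusted threshold of 0.05 by limma, and 2 of the 9 tested had an unadjusted p under 0.05. Of the 9, 6 had a higher and 3 a lower mean log2 level in WCE-treated tumors, and their median log2 fold change was 0.17, against −0.0063 over all entries in the fit.

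By limma, 7.1% of all 13287 entries had an unadjusted p under 0.05, 3.33% with the lower and 3.78% with the higher level in WCE-treated tumors. The members had 1 gene in each direction, so these counts are read as single genes and not as a property of the family. Only 1 entry, 0.00753% of those tested and not a member, passed the adjusted threshold. The groups did not overlap in 6.4% of the entries with WCE-treated tumors below and in 6.37% with WCE-treated tumors above, and the members again gave 1 gene in each direction.

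**Figure D1:**
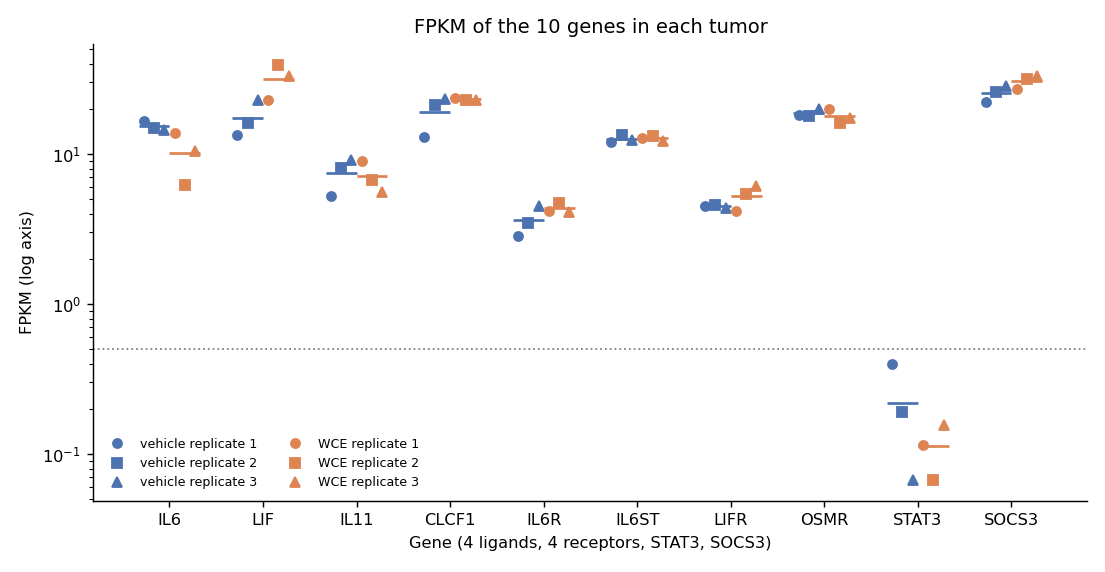
Level of each of the 10 members in each tumor, in FPKM on a log axis, with vehicle-treated tumors in blue, WCE-treated tumors in orange, a bar at each group mean and a dotted line at the filter of 0.5 FPKM. The LIF points of WCE-treated tumors (23.0 to 39.3 FPKM) lie above the highest vehicle-treated tumor, the IL6 points (6.17 to 13.8 FPKM) lie below all vehicle-treated tumors, and STAT3 stays under 0.5 FPKM in every tumor.

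IL6, the founding ligand of the family, is listed on chromosome 7 from 22766766 to 22771621. The table names no build with its coordinates, and those of the members differ from the RefSeq GRCh38 positions, so no base was read at them. The 3 tumors with vehicle held 16.5, 14.8 and 14.5 FPKM of IL6 and the 3 with WCE 13.8, 6.17 and 10.5 FPKM. All WCE-treated tumors lay below all vehicle-treated tumors, although WCE replicate 1 lay just under its near-identical partner, vehicle replicate 3. The mean was 15.3 ± 1.06 FPKM with vehicle and 10.1 ± 3.83 FPKM with WCE (SD, n = 3 each), a spread that was wider among the treated tumors. On the log2(FPKM + 1) scale the fold change was −0.60 (standard error 0.24, 95% confidence interval −1.17 to −0.042), with an unadjusted p of 0.0384 and an adjusted p of 0.623 by limma. An exact permutation p of 0.1 is the lowest that 3 tumors against 3 can give, and IL6 reached it. Without the near-identical pair the change of IL6 on this scale was −0.88 (standard error 0.24, unadjusted p = 0.0139, adjusted p = 0.202 by limma). When single tumors were left out the unadjusted p of IL6 exceeded 0.05 in 5 of 6 fits, all but the one without WCE replicate 1, and without WCE replicate 2, its lowest tumor, the log2 fold change was −0.32.

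LIF, leukemia inhibitory factor, signals through LIFR and IL6ST and is listed on chromosome 22 from 30636442 to 30642796. Its levels were 13.4, 16.0 and 23.0 FPKM in vehicle-treated tumors and 23.0, 39.3 and 32.9 FPKM in WCE-treated tumors. The groups did not overlap, but the highest vehicle-treated tumor and the lowest WCE-treated tumor were the near-identical pair, whose log2 levels differed by 0.00070. LIF averaged 17.5 ± 4.96 FPKM with vehicle and 31.7 ± 8.20 FPKM with WCE (SD, n = 3 each). The log2 fold change was 0.83 (standard error 0.24, 95% confidence interval 0.27 to 1.38), with an unadjusted p of 0.00938 and an adjusted p of 0.623 by limma, and the exact permutation p was again 0.1. Without the pair it was 1.24 (standard error 0.15, 95% confidence interval 0.87 to 1.61, unadjusted p = 0.000315, adjusted p = 0.171 by limma). LIF was the member whose unadjusted p stayed under 0.05 in each of the 15 alternative fits, with a log2 fold change of 0.66 to 1.03 when single tumors were left out.

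IL11, which signals through IL11RA and IL6ST, is listed on chromosome 19 from 55875757 to 55881814. Its levels were 5.23, 8.07 and 9.07 FPKM with vehicle and 9.02, 6.70 and 5.61 FPKM with WCE. The groups overlapped throughout, and the 2 highest tumors were the near-identical pair. Its log2 fold change was −0.05 (standard error 0.22, 95% confidence interval −0.56 to 0.46, adjusted p = 0.953 by limma).

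CLCF1, a cytokine that signals through the receptor of ciliary neurotrophic factor together with LIFR and IL6ST, is listed on chromosome 11 from 67085310 to 67159158. This interval is shared with 2 other entries, POLD4 and LOC100130987, so reads of overlapping genes may have been assigned to it. CLCF1 had levels of 12.9, 21.2 and 23.1 FPKM in vehicle-treated tumors and of 23.6, 23.0 and 23.0 FPKM in WCE-treated tumors. The WCE-treated tumors were nearly equal to each other and to vehicle replicate 3, and vehicle replicate 1 was the low one. CLCF1 had a log2 fold change of 0.31 (standard error 0.20, 95% confidence interval −0.15 to 0.77, adjusted p = 0.647 by limma) and 0.062 without vehicle replicate 1.

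Because FPKM is a level per length, the 4 ligands can be set against each other within a tumor. Reads of overlapping genes may be part of the CLCF1 level, which limits the sum and all shares of it. The summed level of the 4 ligands was 48.0, 60.1 and 69.7 FPKM with vehicle and 69.4, 75.2 and 71.9 FPKM with WCE. IL6 made up 34.3%, 24.7% and 20.8% of that sum in vehicle-treated tumors and 19.9%, 8.21% and 14.5% in WCE-treated tumors. LIF made up 28.0%, 26.6% and 33.0% with vehicle and 33.2%, 52.3% and 45.7% with WCE. The ratio of LIF to IL6 thus lay between 0.816 and 1.59 in vehicle-treated tumors and between 1.67 and 6.38 in WCE-treated tumors, with the near-identical pair at 1.59 and 1.67. In vehicle replicate 1 IL6 was the most abundant of the 4, and in WCE replicates 2 and 3 LIF was. CLCF1 was the most abundant in vehicle replicate 2 (35.3%), vehicle replicate 3 (33.2%) and WCE replicate 1 (33.9%). In the last 2 of these tumors, the near-identical pair, LIF was close to it. These shares follow from the levels of the 4 ligands given above and were not tested again.

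**Figure D2:**
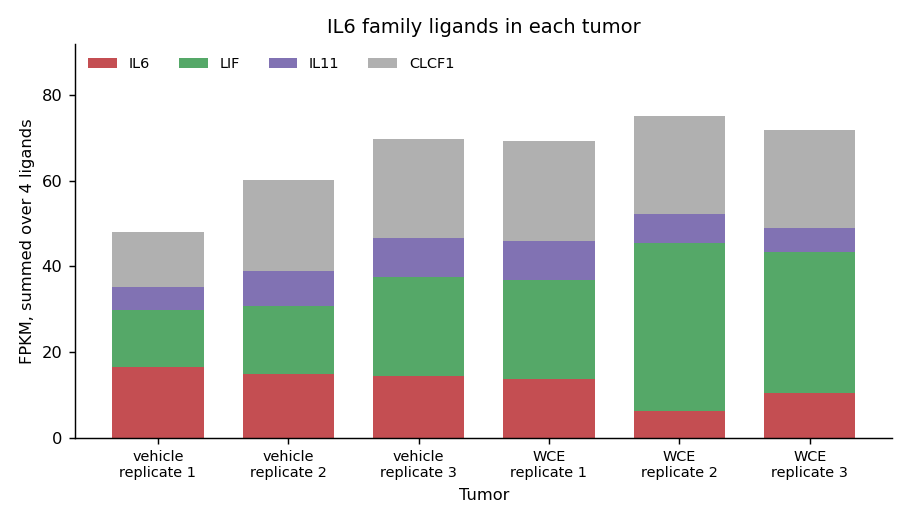
Stacked bars of the levels of IL6, LIF, IL11 and CLCF1 in each of the 6 tumors, in FPKM. LIF is the largest part in WCE replicates 2 and 3 (39.3 and 32.9 FPKM), where the IL6 part is at its lowest (6.17 and 10.5 FPKM), and the bars of vehicle replicate 3 and WCE replicate 1 are nearly the same.

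IL6ST, the signal-transducing chain shared by the family, is listed on chromosome 5 from 55230925 to 55290821. IL6ST had levels of 12.0, 13.3 and 12.4 FPKM in vehicle-treated and of 12.7, 13.2 and 12.2 FPKM in WCE-treated tumors. These 6 values were the least spread of any expressed member, and the groups overlapped. IL6ST had a log2 fold change of 0.02 (standard error 0.092, 95% confidence interval −0.20 to 0.23, adjusted p = 0.961 by limma).

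OSMR pairs with IL6ST to bind oncostatin M and is listed on chromosome 5 from 38845960 to 38935743. Its levels were 18.1, 17.8 and 19.97 FPKM with vehicle and 19.9, 16.1 and 17.4 FPKM with WCE. The groups overlapped, with the near-identical pair highest. OSMR had a log2 fold change of −0.07 (standard error 0.11, 95% confidence interval −0.32 to 0.19, adjusted p = 0.858 by limma).

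IL6R, the private chain of IL6, is listed on chromosome 1 from 154377669 to 154441926. It was at 2.85, 3.47 and 4.52 FPKM in vehicle-treated and at 4.18, 4.72 and 4.11 FPKM in WCE-treated tumors. Vehicle replicate 3 lay within the range of the WCE-treated tumors and the other vehicle-treated tumors lay below them. The log2 fold change was 0.23 (standard error 0.15, 95% confidence interval −0.13 to 0.58, adjusted p = 0.651 by limma), and 0.38 without the near-identical pair (unadjusted p = 0.0464 and adjusted p = 0.266 by limma).

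LIFR, the chain that binds LIF and also serves other ligands such as CLCF1, is listed on chromosome 5 from 38475065 to 38595507, an interval that also holds the entry of a microRNA gene, MIR3650. Its levels were 4.53, 4.55 and 4.39 FPKM with vehicle and 4.18, 5.38 and 6.08 FPKM with WCE. The vehicle-treated tumors were nearly equal, whereas WCE-treated tumors lay on both sides of them. Its log2 fold change was 0.17 (standard error 0.13, 95% confidence interval −0.15 to 0.48, adjusted p = 0.686 by limma). Without the near-identical pair, whose WCE-treated tumor was the low one, both remaining WCE-treated tumors lay above both vehicle-treated ones, with a log2 fold change of 0.28 (unadjusted p = 0.0760 and adjusted p = 0.316 by limma). Without WCE replicate 1 alone it was 0.29 (unadjusted p = 0.0383 and adjusted p = 0.296 by limma).

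STAT3, the transcription factor at the end of the pathway, is listed on chromosome 17 from 40465343 to 40540513. Its levels were 0.399, 0.190 and 0.0671 FPKM in vehicle-treated tumors and 0.115, 0.0675 and 0.155 FPKM in WCE-treated tumors. All 6 values lay under the filter of 0.5 FPKM, the groups overlapped, and STAT3 was not in the fit. The mean was 0.219 ± 0.168 FPKM with vehicle and 0.113 ± 0.0440 FPKM with WCE (SD, n = 3 each), and the exact permutation test gave p = 0.5.

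The genes next to STAT3 were near 0 as well. In chromosome order, 12 consecutive entries of chromosome 17, from 40253422 to 40674597, had a mean under 0.5 FPKM, and 6 of them were listed at 0 in every tumor. They were DHX58, KAT2A, HSPB9, RAB5C, KCNH4, HCRT, GHDC, STAT5B, STAT5A, STAT3, PTRF and ATP6V0A1. These include genes that most cells use, such as RAB5C of early endosomes and ATP6V0A1 of the proton pump of acidic organelles, and the other STAT genes of this cluster, with STAT5A listed at 0 throughout and STAT5B at no more than 0.144 FPKM. Without STAT3, the highest value of any tumor in the stretch was 0.144 FPKM. The flanking genes were expressed again: DNAJC7 averaged 47.4 FPKM on one side, with ZNF385C at 0.542 FPKM between it and the stretch, and NAGLU averaged 7.80 FPKM and COASY 31.0 FPKM on the other. The stretch covers 421176 bases, and its bounds were set after the values were seen. Of all entries 44.6% were under the filter, and 55 runs of at least 12 such entries in a row occur over all chromosomes. No DNA was analysed here, and the reason for the low values was not tested.

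**Figure D3:**
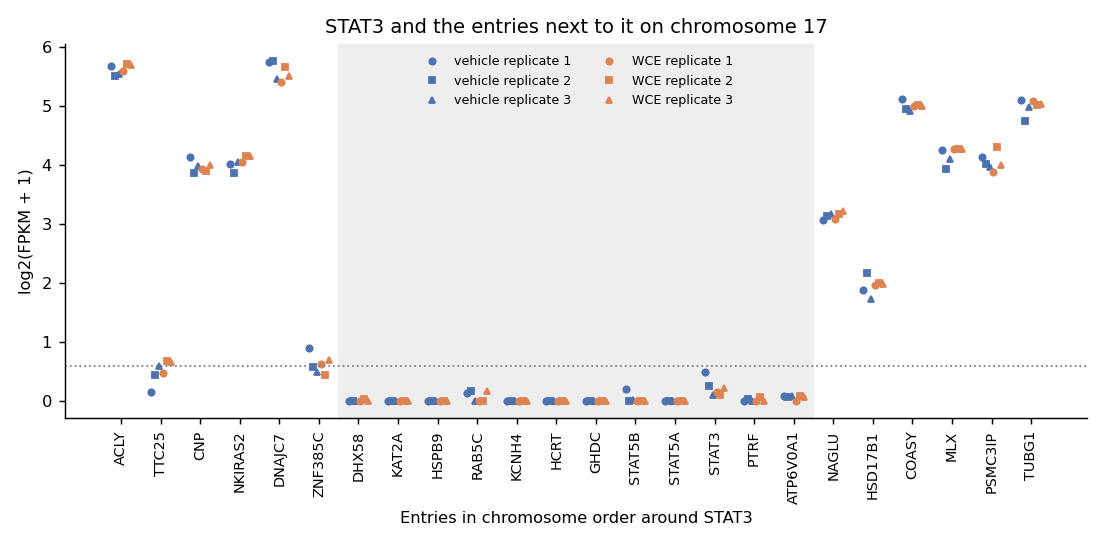
Level of each entry around STAT3 on chromosome 17 in each tumor, as log2(FPKM + 1), in chromosome order, with the 12 low entries shaded and a dotted line at 0.5 FPKM. The 12 entries from DHX58 to ATP6V0A1 lie under 0.5 FPKM in every tumor, with STAT3 the highest of them at 0.399 FPKM in vehicle replicate 1, and expressed genes lie on both sides.

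SOCS3, the inhibitor that STAT3 induces in many cells, is listed on chromosome 17 from 76352859 to 76356158, outside the stretch around STAT3. SOCS3 levels were 22.1, 25.9 and 28.6 FPKM in vehicle-treated tumors and 27.3, 31.7 and 33.3 FPKM in WCE-treated tumors. WCE replicate 1 lay below vehicle replicate 3, its near-identical partner, and the other WCE-treated tumors lay above all vehicle-treated ones. The mean was 25.5 ± 3.26 FPKM with vehicle and 30.7 ± 3.10 FPKM with WCE (SD, n = 3 each). The log2 fold change was 0.26 (standard error 0.13, 95% confidence interval −0.033 to 0.56), with an unadjusted p of 0.0742 and an adjusted p of 0.623 by limma. Without the pair it was 0.43 (unadjusted p = 0.0163 and adjusted p = 0.207 by limma).

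Without the near-identical pair, 3 members were higher (LIF, IL6R and SOCS3) and 1 lower (IL6) in WCE-treated tumors at an unadjusted p under 0.05, and none passed the adjusted threshold by limma. In this comparison of 2 tumors with 2, 8.84% of all entries tested were higher and 9.59% lower at that level. The lowest adjusted p of any member was 0.171, that of LIF.

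**Figure D4:**
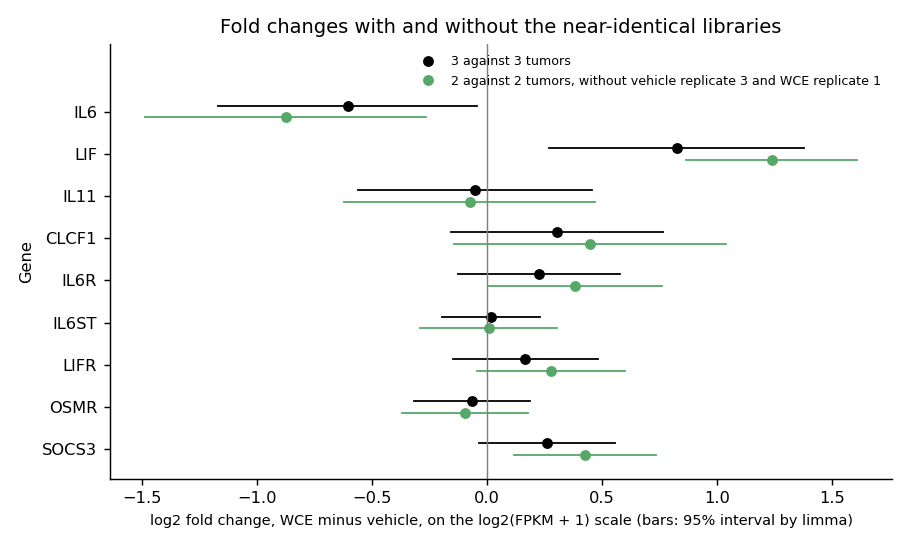
Log2 fold change of the 9 members tested, WCE minus vehicle on the log2(FPKM + 1) scale, for all 6 tumors and for the 2 tumors per group left without the near-identical pair, with bars for the 95% confidence interval. LIF (0.83 and 1.24) and IL6 (−0.60 and −0.88) lie farthest from 0 in both, and the intervals of IL11, IL6ST and OSMR include 0 in both.

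Ordered by their mean level over all 6 tumors, the members ran from SOCS3 at 28.1 FPKM through LIF at 24.6, CLCF1 at 21.1, OSMR at 18.2, IL6 at 12.7, IL6ST at 12.6, IL11 at 7.28, LIFR at 4.85 and IL6R at 3.97 to STAT3 at 0.166 FPKM. Neighbors in this order had separate ranges at only 2 steps, between IL6ST and IL11 and between IL6R and STAT3. At the other steps the ranges overlapped, although OSMR was above IL6 within each of the 6 tumors. IL6R and LIFR were thus below the common chain IL6ST, whose lowest tumor (12.0 FPKM) lay above the highest tumor of LIFR (6.08 FPKM) and of IL6R (4.72 FPKM).

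The other genes of the pathway were read from 5 lists with 49 genes in all, of which 39 passed the filter. Their median log2 fold change was −0.02. Of these, 4 were higher and 1 was lower in WCE-treated tumors at an unadjusted p under 0.05 by limma. Over all entries tested, 3.78% were higher and 3.33% lower at that level. None of the 39 passed the adjusted threshold by limma, and the lowest adjusted p was 0.623. Without the near-identical pair 6 were higher and 2 lower at that level, with a lowest adjusted p of 0.174. In that fit 8.84% of all entries tested were higher and 9.59% lower. The higher ones included FGG (log2 fold change 0.29 with all tumors, 0.68 without the pair) and PTPN6 (0.34 without it). The lower ones included PIM1 (−0.35 without it). These counts are read as single genes. FGG was near the filter, at 0.39, 0.65 and 0.41 FPKM with vehicle and at 0, 1.26 and 1.61 FPKM with WCE. Its log2 fold change was 0.023 without WCE replicate 3. Of the other ligands 2 of 7 passed the filter and neither had an unadjusted p under 0.05. CTF1, cardiotrophin, had a log2 fold change of 0.03. The entry that lists CNTF also lists ZFP91, so its log2 fold change of −0.0017 cannot be assigned to CNTF. OSM, IL27, EBI3 and IL31 were under 0.5 FPKM in the mean, and OSM, the ligand of OSMR, was at 0 to 0.0860 FPKM. Of the other receptors 3 of 4 passed the filter, from IL27RA with a log2 fold change of −0.12 to IL11RA with 0.21, and none had an unadjusted p under 0.05. The value of IL11RA was 0.016 without vehicle replicate 1. CNTFR, the chain that binds CLCF1 and CNTF, was under the filter at 0 to 0.0822 FPKM.

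Of 8 kinases and other STAT genes 6 passed the filter, with a median log2 fold change of 0.21, and 2 were higher at an unadjusted p under 0.05 by limma. Over all entries tested 3.78% were higher at that level, and the 2 are read as single genes. TYK2, a kinase bound to the receptors, was at 24.1, 23.2 and 31.0 FPKM with vehicle and at 31.8, 32.6 and 32.4 FPKM with WCE. No WCE-treated tumor was as low as a vehicle-treated one, but vehicle replicate 3 was close to the treated tumors (log2 fold change 0.31, unadjusted p = 0.0380 and adjusted p = 0.623 by limma). STAT6, which acts downstream of IL4, was at 12.2, 13.4 and 15.5 FPKM with vehicle and at 15.4, 18.7 and 20.6 FPKM with WCE. Only the near-identical pair overlapped (log2 fold change 0.38, unadjusted p = 0.0259 and adjusted p = 0.623 by limma). JAK2 had the lowest log2 fold change of the list, −0.16, and its groups did not overlap, with an unadjusted p of 0.159 by limma.

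All 10 genes listed as negative regulators passed the filter, and their median log2 fold change was −0.05. The list is broad, as it also holds PTPN11 and the proteases that shed IL6R, ADAM10 and ADAM17, which do not act only as inhibitors. Only PTPN2, a phosphatase that acts on JAK and STAT proteins, had an unadjusted p under 0.05. PTPN2 was at 63.8, 53.9 and 46.0 FPKM with vehicle and at 45.1, 40.3 and 40.2 FPKM with WCE. The groups did not overlap, with the near-identical pair at the border (log2 fold change −0.36, unadjusted p = 0.0267 and adjusted p = 0.623 by limma). The highest of the list was PIAS3, an inhibitor of STAT3, with a log2 fold change of 0.27 (unadjusted p = 0.144 by limma), which was 0.089 without vehicle replicate 1 and then below that of PIAS1 (0.18).

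Of 20 genes known as STAT3 targets in other cells 18 passed the filter, 7 with a higher and 11 with a lower mean log2 level in WCE-treated tumors and a median log2 fold change of −0.06. The 2 with an unadjusted p under 0.05 by limma were both higher, against 3.78% of all entries tested that were higher at that level. MCL1, which protects cells from apoptosis, was at 99.9, 127.7 and 128.6 FPKM with vehicle and at 125.9, 209 and 191.9 FPKM with WCE. WCE replicate 1 lay within the vehicle range and the other WCE-treated tumors above it (log2 fold change 0.54, unadjusted p = 0.0305 and adjusted p = 0.623 by limma). BCL6, a transcriptional repressor, was at 9.41, 11.9 and 15.8 FPKM with vehicle and at 17.1, 18.0 and 17.5 FPKM with WCE. Its groups did not overlap (log2 fold change 0.50, unadjusted p = 0.0191 and adjusted p = 0.623 by limma). SERPINA3, an acute-phase protease inhibitor, had the lowest log2 fold change of the list, −0.57 (unadjusted p = 0.191 by limma), with tumors of both groups between 0.351 and 3.22 FPKM. That value was −0.23 without WCE replicate 2 and −0.89 when vehicle replicate 1 was dropped. Dropping WCE replicate 1 gave −0.92 (unadjusted p = 0.0359, adjusted p = 0.291 by limma). Without the near-identical pair the log2 fold changes were 0.44 for TYK2, 0.58 for STAT6, −0.53 for PTPN2, 0.82 for MCL1, 0.69 for BCL6 and −0.79 for SERPINA3. When each of the 6 tumors was left out in turn, the unadjusted p was no longer under 0.05 in 3 fits for BCL6, 4 each for MCL1, STAT6 and PTPN2 and 5 for TYK2, a loss for all of them without vehicle replicate 2, WCE replicate 2 or WCE replicate 3.

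**Figure D5:**
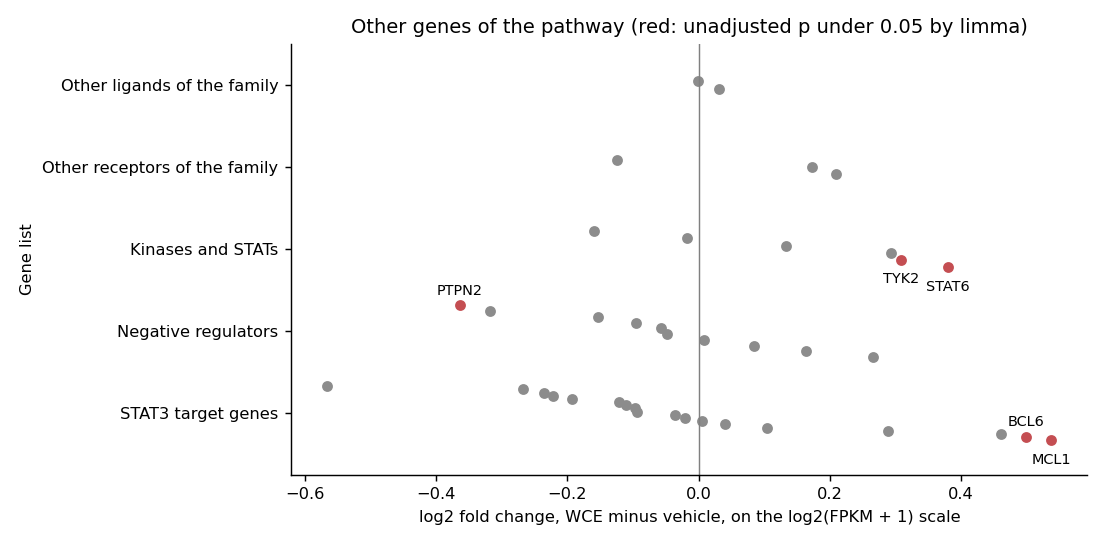
Log2 fold change of each tested gene of the 5 other pathway lists, WCE minus vehicle on the log2(FPKM + 1) scale, 1 point per gene, in red where the unadjusted p by limma was under 0.05. The red points are TYK2, STAT6, BCL6 and MCL1 on the higher side and PTPN2 on the lower side, and none passed the adjusted threshold.

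The entries whose pattern over the 6 tumors was most like that of IL6, by Pearson's r of log2(FPKM + 1) among 13286 other entries tested, were CBLC (r = 0.998), TPST2 (r = 0.995) and KLF5 (r = 0.995). KLF5, a transcription factor of epithelial cells, was at 47.9, 46.2 and 46.2 FPKM with vehicle and at 45.8, 39.6 and 43.1 FPKM with WCE, so WCE replicates 2 and 3 were its lowest tumors, as for IL6, over a smaller range. In all, 91 entries had an r over 0.95 with IL6. With 6 tumors, of which 2 are nearly the same library, this is a description of likeness in these libraries alone.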

How the data were processed

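Transcript levels were analysed in 6 PC-3 tumors, 3 vehicle-treated and 3 WCE-treated, grouped by their labels. The deposited values were FPKM per gene locus made by the authors. Libraries were made with a stranded mRNA kit per the labels, and the submitters' processing notes name TopHat2 2.0.13, Cufflinks and the builds hg19 and mm10 without their roles, so how reads of mouse cells were treated is not given in the sources used here. No counts were used, so depth was known only as relative depth from the steps between low values, and no counting intervals were given.

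Entries with a mean of at least 0.5 FPKM over the 6 tumors were fitted as log2(FPKM + 1) with limma 3.58.1 in R 4.3.3 (mean-variance trend, two-sided, Benjamini-Hochberg adjustment over all 13287 entries tested). Fold changes on this scale understate the change of low genes. Single genes were also compared with the two-sided exact permutation test, whose smallest p is 0.1 with 3 tumors per group. The p-values set the difference between the groups against the spread between these tumors. With all 6 tumors they treat the libraries as independent, which the near-identical pair puts in doubt. Scripts used Python 3.11.15 with numpy 2.4.6, pandas 2.3.3 and matplotlib 3.10.9, and the fit was tested on simulated data. Promoter windows came from a RefSeq table of build GRCh38.p14, matched by symbol for 8 of the 10 members. LIF and CLCF1 had no entry.

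All 10 members were named. Of the pathway lists, genes with an unadjusted p under 0.05 or the highest or lowest fold change of a list were named with their values, as were the 3 entries most like IL6. Genes listed around STAT3, EPCAM, VIM and the other markers named with values, PIAS1, FGG, PTPN6 and PIM1 were chosen after their values were seen. So were the markers and pathway genes named only for their low level. The members and lists were chosen with earlier results of these data known. Alternatives were another pseudocount (0.1), no filter, a filter at 1 FPKM, median-ratio and upper-quartile scaling, array weights, a replicate block, no trend, each tumor left out in turn, and the near-identical pair left out together. Some marker and pathway values are not reported here.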

Additional observations from a re-analysis of the deposited data

How the results depend on the processing

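Over the 9 members tested and 15 alternative fits each (135 values), 113 kept their direction and their side of the unadjusted threshold of 0.05, 6 lost it, 9 gained it and 7 changed sign. The number of members under that threshold (2 with all tumors) was 1 without the filter on low values, 4 with array weights, 3 with the replicate block, 4 without the near-identical pair and 1 to 4 when single tumors were left out (4 without WCE replicate 1, 3 without vehicle replicate 3 and 1 without any other tumor). Over all entries, 944 were under it with all tumors, 3201 with array weights, 2449 without the pair and 219 to 2033 when single tumors were left out. At the adjusted threshold the 1 entry became 0 without the filter, 5 without the pair and 1 to 7 when single tumors were left out. The counts without the filter (1051) and with the replicate block (1049) stayed near 944.

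IL6 lost its unadjusted p under 0.05 without the filter and in 5 of 6 fits that left out a tumor, with log2 fold changes from −0.84 to −0.32. IL6ST changed sign with array weights (−0.036), which gave vehicle replicate 1 a weight of 0.408 and WCE replicate 3 one of 4. When single tumors were left out, the signs also changed for IL6ST (−0.011 to 0.057), IL11 (−0.26 to 0.088), OSMR (−0.14 to 0.0014), IL27RA (−0.24 to 0.074), CTF1 (−0.0038 to 0.049) and the entry with CNTF (−0.024 to 0.029), whose sign also changed with median-ratio (0.0056) and upper-quartile scaling (0.016). Array weights also gave SERPINA3 −0.87 and LIFR 0.30, both with an unadjusted p under 0.05. The cause of these changes was not tested.

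The tumors of both groups carry the same replicate numbers, and deviations of same-numbered tumors from their group means had correlations of −0.241, 0.16 and −0.0931. With 3 tumors per group and the near-identical pair among them, these values cannot decide whether the numbers pair tumors. The replicate block (1 entry at the adjusted threshold) is given as an alternative only. With 3 tumors per group, a shallow library near-identical to one of the other group and no counts, differences of the size of those of IL11, IL6ST and OSMR could not be detected.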
